A study of Mus musculus with 8 samples.

Results

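The proteasome is the protease complex that degrades ubiquitin-tagged proteins in every cell. Its genes were followed here in the developing mouse lung through all probe sets whose only annotated gene symbol begins with Psma, Psmb, Psmc, Psmd or Psme and a number. That rule took 53 probe sets of 42 genes, out of 12422 probe sets and 8251 named genes on the array. Of the 42 genes, 40 encode subunits, activators or assembly chaperones of the proteasome. The remaining 2, Psmc3ip and Psme3ip1, encode proteins named for an interaction with a subunit and matched the spelling of the rule alone. Probe sets annotated to Psme2 carried several symbols and fell outside the rule.

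All RNA came from C57/Bl6 mice at postnatal day 6, when secondary septa grow out and divide the air spaces. In one group, the tips of these septa were cut from frozen lung sections by laser capture, which lifts chosen areas of tissue under a microscope, and 10000 tips from many pups were pooled. The other group was RNA from pooled whole lung of pups of the same strain and age. The comparison was made in 2 experiments on different litters, and each of the 4 RNA samples was hybridised to 2 Affymetrix arrays, so that 2 RNA samples per group were the replicates. The labels name no allele or agent for either group, and a tip holds a mixture of endothelium, epithelium, mesenchyme and blood cells, as whole lung does.

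The core particle of the proteasome is a barrel of stacked rings. The outer alpha rings gate the entry of substrate, and the inner beta rings carry the caspase-like, trypsin-like and chymotrypsin-like active sites of Psmb6, Psmb7 and Psmb5. In leukocytes, and in other cells exposed to interferon gamma, these sites can be replaced by the inducible subunits Psmb9, Psmb10 and Psmb8, which form the immunoproteasome and favour peptides for antigen presentation. The regulatory particle that caps the barrel has a ring of ATPases, the Psmc subunits, which unfold substrates, and non-ATPase Psmd subunits, which bind and remove ubiquitin. The Psme proteins are alternative caps.

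Of the 53 probe sets, 40 probe sets of 36 genes were bright enough to be tested, and the other 13 were too dim. Among the 40, 5 were higher in tips than in whole lung, 9 were lower and 26 did not pass (limma, adjusted p under 0.05 over all 7453 probe sets tested). The members called thus made up 35.0% of those tested, where 28.3% of all probe sets tested were called. Higher calls were 12.5% of the members against 14.5% of all probe sets, and lower calls were 22.5% against 13.7%. The median log2 difference, tips minus lung, was -0.09 over the members and 0.35 over all probe sets tested, and 26 of the 40 members lay below that common median. The subunits did not move as a block: the SD of the members' log2 differences was 1.23, beside 1.14 over all probe sets tested. With a single probe set per gene, the brightest, 5 genes were higher, 9 were lower and 22 did not pass.

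**Figure D1:**
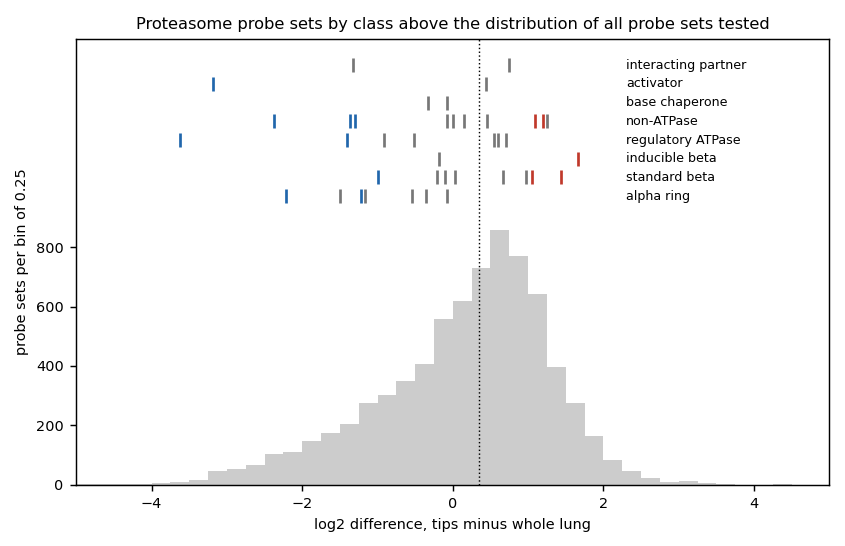
Log2 differences, tips minus whole lung, of the 40 proteasome probe sets tested (ticks, a line for each class; red passed and higher, blue passed and lower, grey did not pass) above the histogram of all 7453 probe sets tested, with their median of 0.35 as a dotted line. The 7 alpha ring ticks all lie below 0, and 4 ticks lie at -2 or below while none lies at 2 or above.

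The 4 members with the largest differences were all lower in tips. They were the ATPase Psmc6, the activator Psme4, the deubiquitinase Psmd14 and the alpha ring subunit Psma6, and these 4 were also the only called members that passed in every one of 20 alternative analyses. A log2 difference of -2 or lower was seen in 4 of the 40 members tested and in 5.46% of all probe sets, and one of 2 or higher in 0 members and in 2.36% of all. The stretches of 120 bases before the transcription start of these 4 genes are shown so that their promoters can be set side by side (RefSeq, GRCm38.p6, all on the plus strand). Psma6 has a pair of annotated starts, and the upstream stretch of each is given. Capitals mark a match to CCGGAAG, the core that ETS factors bind, or to CCAAT, the box bound by NF-Y, which is ATTGG on the other strand.
Psmc6 chr14:45329704-45329823: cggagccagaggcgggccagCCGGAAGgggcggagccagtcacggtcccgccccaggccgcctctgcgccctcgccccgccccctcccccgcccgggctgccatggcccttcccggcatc
Psme4 chr11:30771655-30771774: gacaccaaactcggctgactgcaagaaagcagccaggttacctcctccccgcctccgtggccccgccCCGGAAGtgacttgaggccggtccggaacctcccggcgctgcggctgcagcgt
Psmd14 chr2:61711574-61711693: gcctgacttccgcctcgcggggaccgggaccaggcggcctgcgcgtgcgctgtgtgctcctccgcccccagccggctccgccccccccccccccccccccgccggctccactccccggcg
Psma6 chr12:55384102-55384221: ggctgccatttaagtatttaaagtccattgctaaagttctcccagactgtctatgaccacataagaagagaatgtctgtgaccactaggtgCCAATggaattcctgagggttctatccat
Psma6 chr12:55398705-55398824: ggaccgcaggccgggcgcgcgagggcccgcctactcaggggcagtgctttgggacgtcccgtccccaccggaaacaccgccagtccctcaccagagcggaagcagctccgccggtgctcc
The stretches of Psmc6, Psmd14 and Psme4 are rich in G and C, at 80.8%, 83.3% and 68.3%. That of the second Psma6 start is as well, at 73.3%, whereas that of the first Psma6 start has 42.5%. Over longer windows of 300 bases around the start, the median was 60.7% for all genes tested and 57.8% for the members. CCGGAAG stands whole in the stretches of Psmc6 and Psme4. In the 300-base windows Psma6 has it too, beginning 132 and 2 bases before a start and 17 bases after a start. These matches lie outside the printed stretches or are cut by their end, and so are not marked.

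In the alpha ring, all 7 subunits were tested and all 7 had negative differences, with 2 lower, 0 higher and a class median of -1.16. At an unadjusted p under 0.05, limma gave 4 lower and 0 higher. Psma6 gave scaled signals of 10171 and 13481 in the lung RNA of experiments 1 and 2, and 3277 and 1892 in the tip RNA. Every lung array (9505 to 13886) lay above every tip array (1647 to 4475), and the log2 difference was -2.22 ± 0.34 (SE, n = 2 RNA samples per group; limma adjusted p = 0.00287). Psma5 had signals of 4673 and 5244 in lung and 2070 and 2277 in tips. Its groups did not overlap on any array either, and its difference was -1.22 ± 0.30 (limma adjusted p = 0.0194). Without either lung RNA, or on either array of each RNA alone, the call of Psma5 was lost.

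The other 5 alpha subunits did not pass. Psma1 was at 1959 and 1920 in lung and at 1207 and 391 in tips, a difference of -1.50 ± 0.52 (limma adjusted p = 0.0572), with the tip RNAs far apart. Psma3, on a probe set that other transcripts may share, had signals of 55683 and 62531 in lung and 15928 and 43679 in tips, with a difference of -1.16 ± 0.49 (limma adjusted p = 0.0989). With the experiment as a block in the fit, both passed, Psma1 with an adjusted p of 0.0192 and Psma3 with an adjusted p of 0.0379. Every lung array was above every tip array for 5 of the 7 subunits, Psma2 and Psma4 being the exceptions. Among all probe sets tested, the arrays of the groups lay apart with lung above for 18.0%, and in either direction for 42.0%. Psma7 differed by -0.54, Psma4 by -0.36 and Psma2, the subunit with the smallest difference, by -0.08. Psma2 was at 3027 and 3833 in lung and at 3073 and 3466 in tips, so its groups could not be separated. The class median stayed below that of all probe sets tested in all 20 alternatives and ranged from -1.70 to -0.44. All 7 differences were negative in 17 of them. The 3 exceptions were array 1 of each RNA alone and the fit without the tip array of highest background, each with 1 positive difference, and the fit without the lung RNA of experiment 2, with 2.

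**Figure D2:**
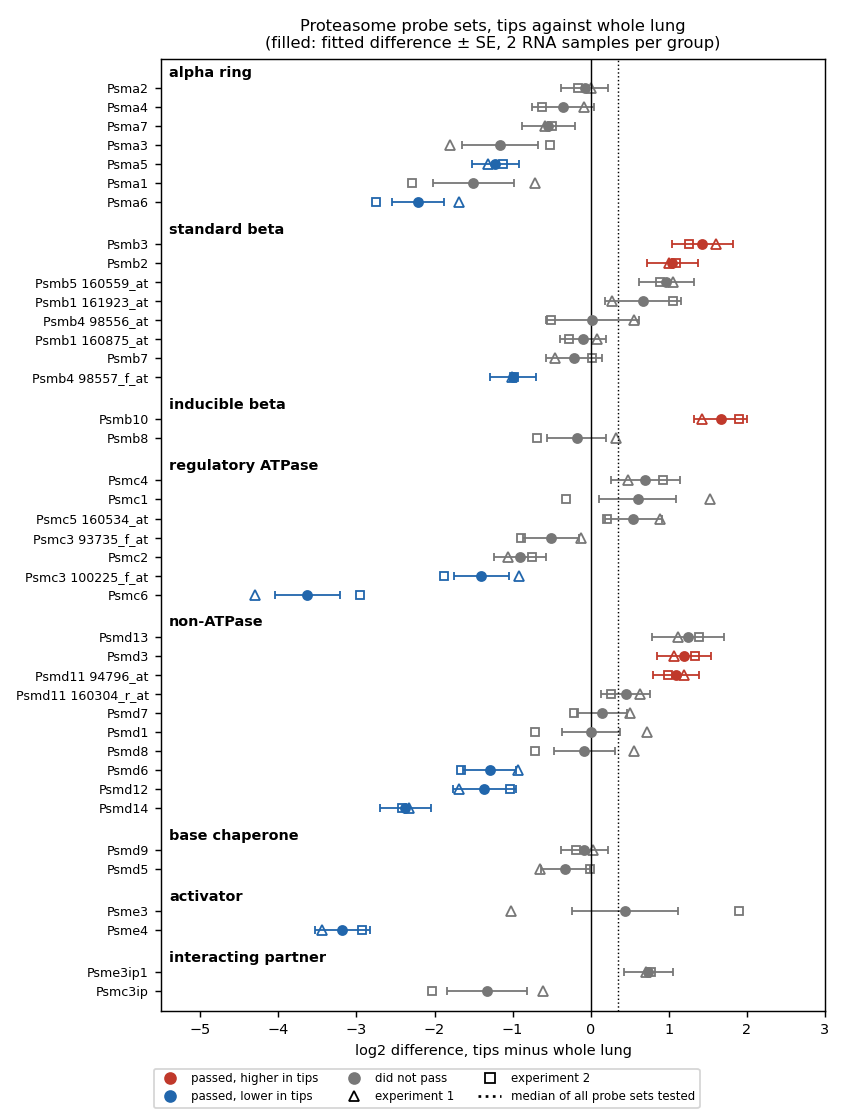
Log2 difference of each of the 40 proteasome probe sets tested, by class (filled circle, fitted value with its SE, 2 RNA samples per group; triangle, experiment 1; square, experiment 2). The dotted line is the median of all probe sets tested, 0.35. Alpha ring values run from -2.22 to -0.08, while beta ring and non-ATPase values fall on both sides of 0.

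The beta ring was mixed. The standard subunits had 12 probe sets, of which 8 were tested: 2 were higher, 1 was lower and 5 did not pass, with a median of 0.35. Psmb3, a structural subunit with no active site, had signals of 741 and 780 in lung and 2714 and 1627 in tips and differed by 1.43 ± 0.39 (limma adjusted p = 0.0265). Its lung arrays of experiment 2 read 191 and 1370, and the higher of these exceeded the lowest tip array at 1197. Psmb3 was the only called member whose arrays overlapped between the groups. Psmb2, likewise without an active site, was at 1100 and 1205 in lung and at 2545 and 2756 in tips, with a difference of 1.05 ± 0.33 (limma adjusted p = 0.0426). Psmb3 passed in 10 of the 20 alternatives and Psmb2 in 9.

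Of the standard catalytic subunits, Psmb5 had a difference of 0.97 ± 0.35 on its tested probe set (limma adjusted p = 0.0647), with lung at 1076 and 902 and tips at 2455 and 1844. All 4 tip arrays of that probe set, 1389 to 3109, were above all 4 lung arrays, 881 to 1272. Its other probe set, too dim to test, gave -0.72. Psmb7, on a probe set that other transcripts may share, differed by -0.22, with 1394 and 1213 in lung and 980 and 1407 in tips. It was above background on 2 of the 4 tip arrays. Psmb6 was under background on every array of both groups and has no fold here. An array's background was taken as the 95th percentile of its 19 probe sets for transcripts of bacteria and yeast.

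Psmb1 and Psmb4, the remaining structural beta subunits, showed how far probe sets of a gene can part. Psmb4 was lower on a probe set that other transcripts may share, with 12307 and 14280 in lung and 6035 and 7046 in tips (-0.99 ± 0.29, limma adjusted p = 0.0342). Its second probe set differed by 0.02 ± 0.60 and the third, too dim to test, by 1.04. The first passed in 11 of the 20 alternatives, and its call was lost under quantile normalization and cyclic loess among others. Psmb1 differed by -0.10 on the probe set at 7975 in lung and 7342 in tips, by 0.67 on another, and by -0.26 on one too dim to test. None of the 3 probe sets of Psmb1 passed.

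**Figure D3:**
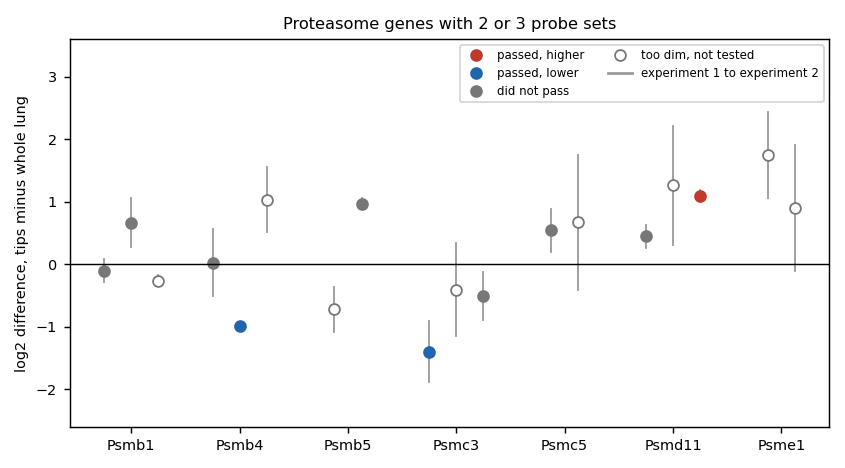
Log2 differences of the 7 proteasome genes with more than 1 probe set, 18 probe sets in all, fitted without the filter on dim probe sets (filled, tested; open, too dim to test; grey line, from the value of experiment 1 to that of experiment 2). Probe sets of Psmb4 run from -0.99 to 1.04 and those of Psmb5 from -0.72 to 0.97, whereas the 3 of Psmd11 are all above 0 and the 3 of Psmc3 all below 0.

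Among the inducible subunits, Psmb10 was the tested member with the largest positive difference. Its signals were 834 and 761 in the lung RNAs and 2529 and 3118 in the tip RNAs. All 4 tip arrays (2113 to 3541) were above all 4 lung arrays (484 to 1039), and the difference was 1.66 ± 0.34 (limma adjusted p = 0.0088). Psmb10 passed in 16 of the 20 alternatives and failed without either lung RNA, with array 1 of each RNA alone and under median centring, where it was still positive.

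Psmb9 was too dim for the filter, at the 38th percentile of mean signal, 2 percentile points short of the cut-off of 40. It was under background on every lung array (93 to 218) and above it on 2 of the 4 tip arrays, with tip arrays between 395 and 1495 that all exceeded the lung arrays. The 2 tip arrays above background, at 940 and 1495, were those of experiment 2. In experiment 1 the tip arrays, at 395 and 1119, were under background. With lung raised to its background and the tip signals taken as measured, also those under background, Psmb9 was 2.14-fold higher in tips. In the fit without the filter its difference of 1.84 passed (limma adjusted p = 0.0399). It was the only one of the 13 dim members that passed there. With all values under the highest background raised to it, Psmb9 differed by 0.07 and did not pass. With the lower common floor of 791.8 it differed by 0.42 and did not pass either. Psmb8, the remaining inducible subunit, was measured at 1140 and 1752 in lung and 1471 and 1018 in tips. Its difference was -0.18 ± 0.38 (limma adjusted p = 0.743), with opposite signs in the experiments, 0.33 and -0.69. The genes of Psmb9 and Psmb8 lie on either side of Tap1, a peptide transporter gene, in the RefSeq gene order (GRCm38.p6), and Tap1 differed by 0.43 ± 0.34 (limma adjusted p = 0.354).

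Psmb10 and Psmb8 were set against the standard subunits they replace. Psmb7 was read on a probe set that other transcripts may share. The log2 difference of Psmb10 exceeded that of Psmb7 by 1.88 in experiment 1 and by 1.88 in experiment 2. That of Psmb8 minus that of Psmb5 was -0.73 and -1.57. No such value is given for Psmb9 and Psmb6, since Psmb6 was under background throughout. These contrasts between probe sets were not tested. Psme1, whose product with that of Psme2 forms the interferon-inducible cap, was too dim to test on both of its probe sets. On the first it was under background on all lung arrays (59 to 123) and at 315 to 1051 in tips. With lung raised to its background and tips as measured, it was 1.44-fold higher in tips. Its difference was 1.75 in the fit without the filter (limma adjusted p = 0.0536). The tip arrays above background, at 1014 and 1051, were those of experiment 2. In experiment 1 the tip arrays, at 378 and 315, were under background. On the second the difference was 0.90.

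Markers of leukocytes, which carry the immunoproteasome at rest, had differences of both signs. Of 12 leukocyte markers on the array, 8 were tested, of which 0 were higher and 3 were lower in tips by limma, counts that were the same at an unadjusted p under 0.05. Their summed signal was 91308 and 99361 in lung and 48521 and 44699 in tips, with 2 markers under background on every array. That fall lay in Ctss and Laptm5, and without these 2 genes the sums were 19423 and 19856 in lung and 27665 and 27007 in tips. Most of the rise in these remaining sums was Lyz2, at 12460 and 14324 in lung and 20828 and 19912 in tips. Ctss differed by -3.05, Ptprc, the pan-leukocyte antigen CD45, by -1.95 and Laptm5 by -1.39, all lower (limma adjusted p = 0.00095, 0.0093 and 0.0218). The other 5 tested markers had positive differences and did not pass, among them the myeloid markers Cd68 at 0.72, Csf1r at 0.61 and Lyz2 at 0.60 and the antigen presentation gene Cd74 at 0.44. The median of the 8 was 0.22. Endothelial markers summed to 119970 and 144660 in lung and to 366490 and 372820 in tips, and 4 of the 8 were higher while 2 were lower. Most of that rise was Eng, an endothelial coreceptor, and without it the sums were 54560 and 55040 in lung and 78867 and 61614 in tips. The rise left without Eng was smaller than that of Tie1 alone, on a probe set that other transcripts may share. Tie1 was at 8005 and 4813 in lung and at 33189 and 17986 in tips. The 2 lower markers were Emcn and Tek. The part of cell composition in the values of Psmb10 and Psmb9 was not tested, and in all of these bulk samples fewer cells of a type cannot be told apart from less RNA per cell. A list of 30 genes for peptide loading and the interferon response had 21 tested members, of which 1 was higher, Irf8 (1.34 ± 0.31, limma adjusted p = 0.0138), and 0 were lower (2 at an unadjusted p under 0.05). Irf8 encodes an interferon regulatory factor of myeloid cells. The list median was 0.10, beside 0.35 over all probe sets tested. B2m, the light chain of class I molecules, differed by -0.01.

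In the ATPase ring, 7 of 9 probe sets were tested, 0 were higher and 2 were lower by limma, and the class median was -0.51. At an unadjusted p under 0.05, 0 were higher and 3 were lower. Psmc6 had the largest difference of any member. Its signal was 35623 and 34268 in lung and 1666 and 4243 in tips, with lung arrays from 29607 to 40079 and tip arrays from 1497 to 4574. The difference was -3.63 ± 0.41 (limma adjusted p = 0.00111), -4.29 in experiment 1 and -2.96 in experiment 2, and it ranged from -4.27 to -2.99 over the 20 alternatives. Psmc3 was lower on a probe set that other transcripts may share, with 4312 and 8072 in lung and 2231 and 2096 in tips (-1.40 ± 0.36, limma adjusted p = 0.0206). A second probe set of Psmc3 gave -0.51 and the third, too dim to test, -0.41. The call of Psmc3 was lost on array 2 of each RNA alone, with all values under the highest background raised to it, and without the lung RNA of experiment 2, whose signal on that probe set was the higher of the lung pair.

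The other ATPases did not pass. Psmc2 differed by -0.91 ± 0.33 (limma adjusted p = 0.0695), with 5399 and 6937 in lung and 2622 and 4151 in tips, and passed with the experiment as a block (adjusted p = 0.037). Psmc4, Psmc5 and Psmc1 had positive differences of 0.70, 0.55 and 0.60. With all values under the highest background raised to it, these were 0.04, 0.53 and 0.17. Psmc4 was above background on only 2 arrays of each group. For Psmc1 the experiments had opposite signs, 1.52 and -0.31. The ATPases assemble as neighbouring pairs, Psmc1 with Psmc2, Psmc3 with Psmc6 and Psmc4 with Psmc5. The log2 difference of Psmc2 minus that of Psmc1 was -2.58 in experiment 1 and -0.44 in experiment 2, and that of Psmc6 minus that of Psmc3 was -3.38 and -1.08. For Psmc5 minus Psmc4 it was 0.42 and -0.73. These contrasts between probe sets were not tested.

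**Figure D4:**
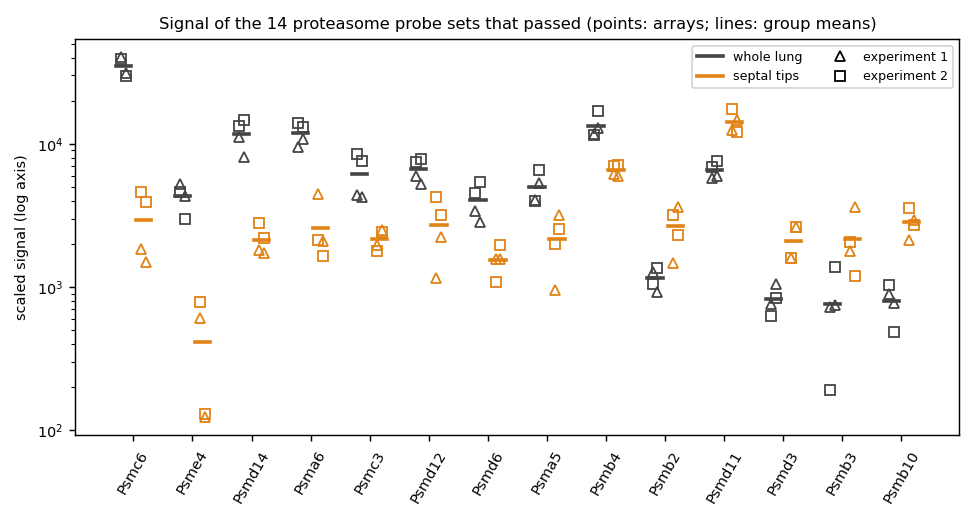
Scaled signal on each array (log axis) of the 14 proteasome probe sets that passed, ordered by their log2 difference (grey, whole lung; orange, septal tips; triangles, experiment 1; squares, experiment 2; lines, group means). For the 9 probe sets on the left the lung arrays are above the tip arrays without overlap, and for Psmb3 the lung arrays span 191 to 1370 and reach into the range of the tips.

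The non-ATPase subunits moved both ways. Of 13 probe sets, 10 were tested, 2 were higher, 3 were lower and 5 did not pass, with a median of 0.08. Psmd14, the metalloprotease of the lid that cuts ubiquitin chains off substrates, had signals of 9598 and 13919 in lung and 1766 and 2498 in tips. Lung arrays ranged from 8096 to 14579 and tip arrays from 1728 to 2788, and the difference was -2.37 ± 0.33 (limma adjusted p = 0.00198), alike in both experiments at -2.33 and -2.42. Psmd7, the lid subunit that pairs with Psmd14, differed by 0.15 ± 0.32 (limma adjusted p = 0.743), with 2683 and 3343 in lung and 4126 and 2875 in tips.

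Psmd6 and Psmd12, structural subunits of the lid, were the other lower members. Psmd6 had signals of 3122 and 4962 in lung and 1565 and 1521 in tips (-1.29 ± 0.34, limma adjusted p = 0.0229). Psmd12, on a probe set that other transcripts may share, was at 5564 and 7696 in lung and 1701 and 3722 in tips (-1.36 ± 0.40, limma adjusted p = 0.0353). Neither gene's arrays overlapped between groups, and Psmd6 passed in 16 and Psmd12 in 10 of the 20 alternatives.

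Psmd3 and Psmd11, also of the lid, were higher in tips. Psmd3 had signals of 908 and 732 in lung and 2100 and 2116 in tips, and its difference was 1.20 ± 0.35 (limma adjusted p = 0.033). Psmd11 had signals of 5843 and 7225 in lung and 13567 and 14783 in tips on its main probe set (1.09 ± 0.29, limma adjusted p = 0.0253). A second probe set of Psmd11 differed by 0.45 ± 0.31 and did not pass, and the third, too dim to test, differed by 1.26. The arrays of both called probe sets were apart, with tips above. Psmd3 passed in 11 and Psmd11 in 14 of the 20 alternatives. All subunits named here sit in the lid, yet Psmd14, Psmd6 and Psmd12 were called in the opposite direction to Psmd3 and Psmd11.

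Of the rest of the class, Psmd13 had a difference of 1.25 ± 0.46 (limma adjusted p = 0.0689), with tips at 760 and 1258 above lung at 281 and 369 on every array. On 3 of the 4 lung arrays it was under background. Psmd8 differed by -0.08. Psmd1, a large scaffold of the base, differed by 0.00 ± 0.38, but by 0.73 in experiment 1 and by -0.72 in experiment 2. Its lung RNAs, at 3336 and 6321, spanned its tip RNAs, at 5883 and 3799. Psmd2, the other scaffold of the base, was too dim to test and under background on all lung arrays. With lung raised to its background and tips as measured, it was 1.36-fold higher in tips. Experiment 2 had 1207 in tips. Experiment 1 had 297 in tips, under background on its arrays, and 273 in lung. Psmd4, a ubiquitin receptor, was also too dim and differed by 0.83. The chaperones that assemble the base gave small differences, -0.33 for Psmd5, -0.08 for Psmd9 and -0.23 for Psmd10, which was too dim to test. Psmd9 was read on a probe set that other transcripts may share.

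The caps other than the regulatory particle differed from each other. Psme4, which encodes a single-chain activator linked to histone turnover and DNA repair, was lower in tips, with a log2 difference of -3.18 ± 0.35 (limma adjusted p = 0.00111). Its signals were 4804 and 3815 in lung and 366 and 456 in tips. The lung arrays lay between 2988 and 5269, and the tip arrays between 123 and 781, with 1 of the 4 above background, so that the size of the difference depended on how low signals were treated. With all values under the highest background raised to it, the difference was -1.76 and still passed. Psme3, the nuclear cap, differed by 0.44 ± 0.68 (limma adjusted p = 0.644), and its experiments disagreed, with -1.03 in experiment 1 and 1.90 in experiment 2. Of the interacting partners, Psmc3ip, a recombination factor, differed by -1.32 ± 0.52 (limma adjusted p = 0.0816) and Psme3ip1 by 0.74 ± 0.32 (limma adjusted p = 0.103).

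A list of 34 other genes of the pathway, for assembly factors, ubiquitin shuttles and regulators, had 19 tested members, of which 1 was higher and 2 were lower, with a median of 0.27. Those that were lower act at the regulatory particle. Usp14, a deubiquitinase that docks on the base, had signals of 3743 and 3272 in lung and 516 and 259 in tips, where it was under background on all 4 arrays, and it was at least 4.44-fold lower in tips (limma adjusted p = 0.00167). Zfand5, a proteasome-binding activator of degradation, had 8278 and 8203 in lung and 900 and 1127 in tips and differed by -3.04 ± 0.30 (limma adjusted p = 0.000941). Psmg3, a chaperone of alpha ring assembly, was higher in tips on a probe set that other transcripts may share. It had 1113 and 927 in lung and 3600 and 4505 in tips and differed by 1.86 ± 0.33 (limma adjusted p = 0.00499). Uchl5, another deubiquitinase of the base, did not pass (-1.24 ± 0.42, limma adjusted p = 0.0541).

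Nfe2l1 encodes the factor that raises proteasome gene transcription when proteasome activity is impaired, through the antioxidant response element. It differed by 0.69 ± 0.45 (limma adjusted p = 0.258). In 300-base windows from 250 before to 50 after the start, which the RefSeq table gave for 34 of the 40 proteasome genes, the element TGACNNNGC was found on either strand in 6 of 36 windows, or 16.67%. Among the 5859 windows of all genes tested on the array it stood in 13.96%. The 6 matches are shown with up to 20 bases of flank on one or both sides, with the element in capitals, since their genes include members called lower (GRCm38.p6, plus strand except Psmb5 on the minus strand, each written in the direction of its gene).
Psmc6 chr14:45329577-45329625: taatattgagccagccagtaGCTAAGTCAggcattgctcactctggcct
Psme4 chr11:30771748-30771776: aacctcccggcgctgcggctGCAGCGTCA
Psmd12 chr11:107479278-107479309: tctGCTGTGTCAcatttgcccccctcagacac
Psmb5 chr14:54618014-54618062: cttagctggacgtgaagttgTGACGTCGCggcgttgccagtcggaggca
Psmb6 chr11:70525328-70525356: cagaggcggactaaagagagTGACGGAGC
Psmd9 chr5:123228139-123228187: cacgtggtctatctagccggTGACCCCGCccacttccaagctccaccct
Psmc6, Psme4 and Psmd12 of these were lower in tips, and Psmb5, Psmb6 and Psmd9 did not pass or were not tested. Of 3 further motifs, added after the values were known and searched on both strands, CCGGAAG stood in 36.11% of the members' windows and 16.2% of the windows of all genes tested. ATTGG stood in 36.11% and 36.66%, and TTCNNNGAA, the interferon gamma activated site, in 5.56% and 6.67%, with Psmb8 and Psmd2 as the members that held it. A match is a stretch of letters and no evidence of binding.

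The members' differences in experiment 1 and experiment 2 had the same sign for 29 of 40 probe sets, or 72.5%, beside 78.8% of all probe sets tested. Across these 40 probe sets, which share the same arrays and are not independent, the values of the experiments correlated at Pearson's r = 0.758 and Spearman's rho = 0.729, given as a description. The members' median was 0.02 in experiment 1 and -0.40 in experiment 2. The arrays of the groups lay fully apart for 19 of the 40 members, or 47.5%, beside 42.0% of all probe sets tested. Tips were above for 7 members, or 17.5% beside 24.1%, and lung for 12, beside 18.0% of all.

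Several features of the arrays moved with tissue. Background was 314 to 568 on the lung arrays and 487 to 1244 on the tip arrays, and the median signal was 501 to 572 and 787 to 924. The ratio of 3' to middle probe sets was 16.5 to 24.8 in lung and 9.23 to 12.4 in tips for Actb, and 0.794 to 1.07 in lung and 1.70 to 2.72 in tips for Gapdh. Other such ratios overlapped between the groups. The ratio of 3' to 5' probe sets was 38.8 to 104.3 in lung and 22.97 to 139.3 in tips for Actb. For Gapdh it was 1.945 to 5.494 in lung and 4.18 to 12.78 in tips. For the transferrin receptor it was 1.174 to 27.88 in lung and 1.874 to 16.02 in tips. The 3' to middle ratio of that gene was 2.966 to 15.85 in lung and 3.612 to 20.01 in tips. The hybridisation controls, transcripts added to each sample, read 66900 to 89800 in lung and 196800 to 514900 in tips for the 3' probe set of CreX, and 1113 to 2055 in lung and 4156 to 14860 in tips for the middle probe set of BioB. Smooth muscle and myofibroblast markers had 4 of 8 tested genes higher and 0 lower (1 at an unadjusted p under 0.05), type II cell markers 1 of 4 higher and 0 lower (0 at an unadjusted p under 0.05), type I cell markers 0 of 3 higher (1 at an unadjusted p under 0.05) and 1 lower, airway markers 2 of 4 higher and 1 lower, erythroid markers 1 of 3 higher and 0 lower (0 at an unadjusted p under 0.05), and markers of dividing cells 1 of 6 higher and 2 lower. None of the genes of these 6 lists was under background on every array. The part of these features in the members' differences was not tested. The number of higher calls depended on the scaling of the arrays. The 5 higher and 9 lower members became 2 and 9 under quantile normalization, 2 and 10 under cyclic loess and 0 and 13 under median centring (2 and 16 at an unadjusted p under 0.05), while the shares of higher calls among all probe sets called were 51.5%, 37.9%, 41.7% and 15.2% in the same order. The median of all probe sets tested was 0.35, 0.03, 0.06 and -0.19 under these scalings. Relative to that median, the members' median was -0.44 as reported, -0.40 under quantile normalization, -0.26 under cyclic loess and -0.44 under median centring.

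**Figure D5:**
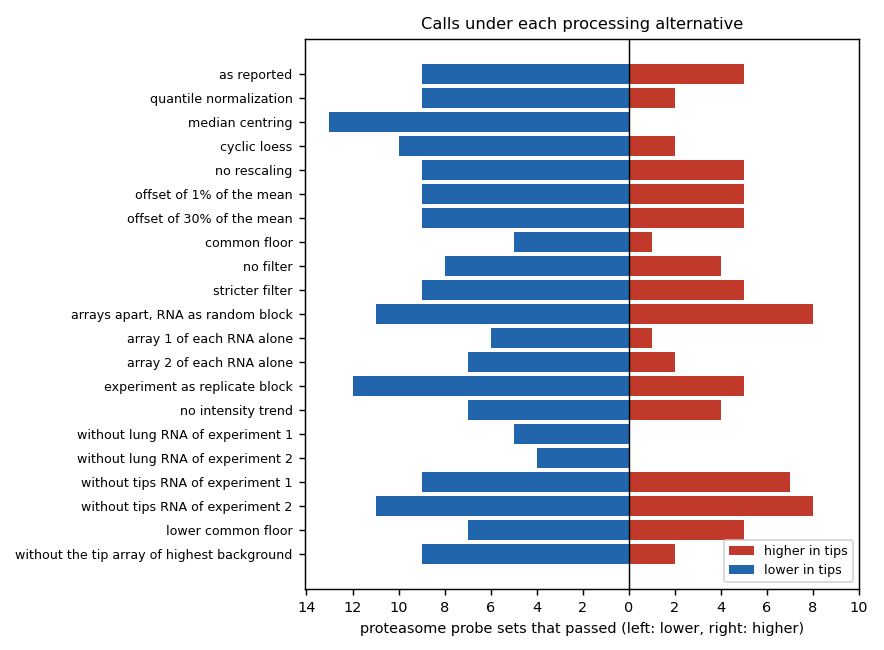
Number of proteasome probe sets that passed, lower in tips (blue, to the left) and higher in tips (red, to the right), as reported and under each of 20 alternatives. Lower calls run from 4 to 13 and higher calls from 0 to 8, and higher calls are 0 under median centring and without either lung RNA.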

How the data were processed

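The authors deposited intensities, 1 linear signal per probe set and array. The submitters' processing notes name MAS5 without a version, and the values show that every array had been scaled to a common trimmed mean. Groups follow the sample titles, since the tip samples are described as whole lung in another field. The labels write an amplification step for all tip arrays but only for array 1 of the lung RNA of experiment 1, whereas the design text has both RNAs amplified in parallel.

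Each array was scaled to a trimmed mean of 1500.9 (2% off each end), 150.09 was added and log2 was taken, which understates differences of dim probe sets. Control probe sets were left out. Probe sets with a mean log2 value under the 40th percentile were not tested. The arrays of an RNA were averaged, and the groups were tested in limma 3.58.1 under R 4.3.3 (lmFit, eBayes with an intensity trend, Benjamini-Hochberg over 7453 probe sets, threshold 0.05), with 2 residual and 7.05 prior degrees of freedom. Where every array of a group was under background, the other group's mean was divided by the larger of background and signal on those arrays (means of log2 values). Such a fold is "at least" for Usp14, whose lung arrays were all above background. For Psmb9, Psme1 and Psmd2, tip signals under background were taken as measured, so the fold is no lower limit. The number of arrays limits the precision. The median SE was 0.355 for the members and 0.397 overall. The p-values measure the spread between RNA pools of different litters and lean on a spread pooled over probe sets. The procedure was tested on simulated data.

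Members and lists were chosen with earlier results of these data known. All members are named whatever their values, with up to 4 genes of each other list and up to 2 of each marker list by smallest p. Tap1, B2m, Nfe2l1, Laptm5, Cd68, Csf1r, Lyz2, Cd74, Eng and Tie1 were named outside that rule, after their values were seen. Genes of the lists and marker lists were read on their brightest probe set alone, also where the array holds more. Probe sets whose names end in f_at, s_at, r_at or i_at may be shared by other transcripts. Of the list genes named, Psmg3, Laptm5, Cd68 and Tie1 were read on such probe sets. The experiment number marks joint processing in the design text and so pairs tips with lung. Their deviations from the tissue means correlated at 0.0452 over the probe sets tested. With 2 experiments this value is the same for either by arithmetic. Other scalings, offsets, floors, filters, single arrays, a block for the experiment and the omission of each RNA were tried as alternatives.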

Additional observations from a re-analysis of the deposited data

Results flagged for a closer look

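In 106 groups of 4 arrays, each a proteasome probe set in a tissue, 5 had an array whose gap to the nearest other, as a share of the group's range, was above Dixon's critical value for 4 values. For 4 independent values chance gives about 1 in 20 groups. The 4 arrays here are 2 of each of 2 RNA samples, so that rate need not hold. None of the 5 probe sets passed the comparison of tips with lung. For Psma2, array 2 of the lung RNA of experiment 2 read 4764 against 2901 to 3130 on the other lung arrays (gap ratio 0.849). For Psmb5, array 2 of the lung RNA of experiment 1 read 1272 against 880.5 to 922.1 (0.877). For Psmd13, the same array read 181.4 against 366.1 to 381.4 (0.938). For the second probe set of Psmc3, array 2 of the tip RNA of experiment 2 read 566.3 against 1558 to 1891 (0.83). For Psmd10, array 1 of the tip RNA of experiment 1 read 748.9 against 114.6 to 149.6 (0.898).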

How the results depend on the processing

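The count of members higher in tips, 5 as reported, was 2 under quantile normalization, 0 under median centring, 2 under cyclic loess, 1 with a common floor at the highest background of 1244, 8 with arrays kept apart, 1 on array 1 and 2 on array 2 of each RNA alone, and 2 without the tip array of highest background, an alternative chosen after seeing the data. The count of members lower, 9 as reported, was 5 with the common floor. The members' median of -0.09 was -0.63 under median centring. Over all probe sets tested, 2106 passed as reported, 860 with the common floor and 1229 on array 1 alone. With 1 RNA sample left out at a time, members higher ranged from 0 to 8, members lower from 4 to 11, their median from -0.28 to 0.06 and all calls from 349 to 3324. Higher calls were 0 without the lung RNA of experiment 1 and 0 without that of experiment 2, with 5 and 4 lower calls (by limma at an unadjusted p under 0.05, 4 higher and 10 lower, and 2 higher and 5 lower), and the lone remaining sample is then assumed to vary like the other group. With the experiment as a replicate block, 5 members were higher and 12 lower, and 2452 probe sets passed in all. Without the filter, 4 members of 53 were higher and 8 were lower. With a lower common floor of 791.8, also chosen after seeing the data, 5 were higher and 7 lower. The cause of these changes was not tested. Over the 20 alternatives, no called member changed sign, and 12 of the 26 members that did not pass did. Of 5 higher calls, 0 held under every other scaling, and of 9 lower calls, 7 did. Signal over background limits the dim members: 13 were not tested, and 8 of these were under background on all lung arrays.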
